A study of Mus musculus with 4 samples.

Results

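Pparg, Cpt1a, Slc25a20 and Cidec, 4 genes of fatty acid handling, were lower in the Lats1/2-deleted mouse pylorus than in the control pylorus. They encode a lipid-sensing nuclear receptor, the entry and transport steps that carry long-chain fatty acids into mitochondria, and a lipid droplet protein. The genes were picked by name from the 2701 genes in the authors' deposited DESeq2 table, and all 4 have a row in it. That table holds no gene with an adjusted p above 0.05, and the genes were chosen with their values in this contrast known, so their differences are described here without a test. Pylorus labelled as epithelium, from the stomachs of C57BL/6 mice, was compared between WT, meaning Lats1fl/fl;Lats2fl/fl without Cre (2 libraries), and Lats1/2iΔLgr5, meaning Lats1fl/fl;Lats2fl/fl;Lgr5-CreER (2 libraries). Both groups carry the floxed alleles and were collected 8 weeks after tamoxifen, and the age of the mice is not given in the sources used here. Lgr5-CreER acts in Lgr5-positive stem cells at the gland base, whose progeny inherit the deletion, and only the Lats1/2iΔLgr5 mice carry it. Frozen sections were used, so each library averages epithelium that did and did not recombine, with any stroma in the sections. The labels do not say whether the 2 libraries of a group came from separate mice, so the spread between them may be technical.

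PPARγ, the product of Pparg, binds DNA as a pair with an RXR receptor at direct repeats of AGGTCA and is best known for driving fat storage in adipocytes, though gut epithelium and macrophages also use it. Genes of fatty acid oxidation are chiefly known as targets of its relative PPARα in liver and are shared in part among the PPAR receptors. Long-chain fatty acids are burned in mitochondria after CPT1A, the rate-limiting enzyme on the outer membrane, links them to carnitine, SLC25A20 carries the acylcarnitine across the inner membrane, and CPT2 turns it back to acyl-CoA. CIDEC, also called FSP27, promotes lipid droplet fusion and is a known PPARγ target in fat.

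The listed genes held between 13413629 and 17689207 counts per library. Levels below are counts divided by the authors' size factors (normalized counts), and log2 fold changes and standard errors (SE) are from edgeR on the same factors. Lats1 had levels of 2152 and 1974 in WT and of 942.5 and 1129 in Lats1/2iΔLgr5, lower in both libraries that carry Cre. Lats2 has no row among the listed genes. The gastric epithelial genes Gkn1, Gkn2, Tff1, Muc5ac, Krt8 and Cdh1 were among the listed genes and abundant, and 5 other markers on the tissue list have no row and were not analysed here. Scaling matters in a table limited to genes already called different: TMM scaling shifted the median log2 fold change of all listed genes by 0.36, DESeq2 size factors from the listed genes by 0.41 and total counts of the listed genes by 0.69, each upward.

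Pparg (ENSMUSG00000000440, chromosome 6, 115360951 to 115490399, plus strand, GRCm38) was counted 5816 and 8633 times in WT 1 and WT 2 and 4700 and 5691 times in Lats1/2iΔLgr5 1 and 2. As levels these are 7339 and 9522 against 4255 and 4448 normalized counts. The WT libraries differed 1.30-fold from each other and the Lats1/2iΔLgr5 libraries 1.05-fold, and the groups did not overlap. Its mean level of 8430 ± 1543 in WT compared with 4352 ± 136 in Lats1/2iΔLgr5 (SD, n = 2), a 1.94-fold difference (log2 -0.95, SE 0.16). For Pparg, the authors' deposited table lists a shrunken log2 fold change of -0.92 with adjusted p = 4.23e-05. An antisense gene, Gm44079, overlaps 13176 bp of Pparg on the other strand, and since the strand setting of the counting is not given, reads of the pair cannot be told apart. In bulk sections like these, fewer cells of a type and less RNA per cell cannot be told apart either.

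Cpt1a (ENSMUSG00000024900, chromosome 19, 3323301 to 3385732, plus strand) had levels of 9764 and 10220 in the WT libraries and of 4762 and 5017 in the Lats1/2iΔLgr5 libraries. Its libraries differed 1.05-fold within each group, the narrowest WT spread of the 4 genes, against a 1.95-fold gap between the lowest WT and the highest Lats1/2iΔLgr5 library. Mean levels were 9992 ± 322 and 4890 ± 180 (SD, n = 2), 2.04-fold lower after deletion (log2 -1.03, SE 0.12). Cpt1a has adjusted p = 7.42e-11 in the authors' deposited table, rank 20 among the 1543 lower genes.

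Slc25a20 (ENSMUSG00000032602, chromosome 9, 108662088 to 108684641, plus strand) stood at 2653 and 3294 normalized counts in WT, and at 1219 and 1014 in Lats1/2iΔLgr5, without overlap. Mean levels were 2974 ± 454 and 1116 ± 145 (SD, n = 2), a 2.66-fold difference (log2 -1.41, SE 0.18), listed with adjusted p = 8.69e-09 by the authors' deposited table. The translocase transcript thus stood at 37.5% of its WT mean, against 48.9% for the transcript of the enzyme before it in the shuttle, Cpt1a.

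Cidec (ENSMUSG00000030278, chromosome 6, 113424634 to 113435760, minus strand) had levels of 2396 and 3433 in WT 1 and WT 2 and of 1155 and 791.7 in Lats1/2iΔLgr5 1 and 2. It had the widest spread of the 4 genes, 1.43-fold within WT and 1.46-fold within Lats1/2iΔLgr5, and the groups still did not overlap. Mean levels were 2915 ± 733 and 973.5 ± 257 (SD, n = 2), 2.99-fold lower after deletion (log2 -1.58, SE 0.27), and Cidec has adjusted p = 3.47e-06 in the authors' deposited table.

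**Figure D1:**
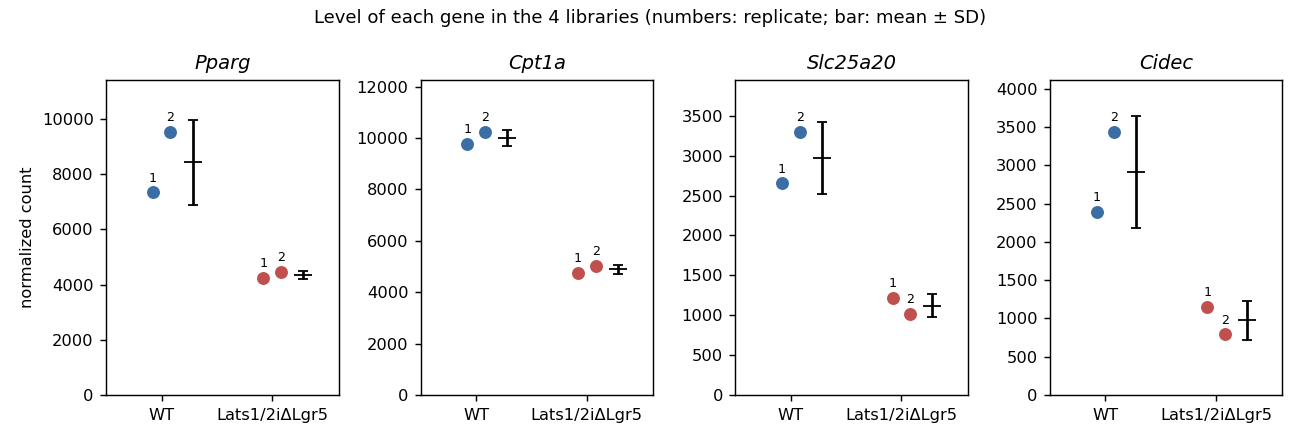
Level of each of the 4 genes (normalized counts, linear axis from 0) in WT (blue) and Lats1/2iΔLgr5 (red), with points numbered by replicate and the mean ± SD beside them (n = 2). In each panel both Lats1/2iΔLgr5 points sit below both WT points, with the widest spread for Cidec in both groups and the narrowest for Cpt1a in WT and for Pparg in Lats1/2iΔLgr5.

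All 4 genes are thus among the 11.7% of the 13142 genes tested by the authors (a number inferred from their p-values) that were called lower, beside 8.81% called higher and 20.6% called in either direction; the choice of the genes fixed this, and it is no evidence about them. Among all listed genes 57.1% were lower with groups that do not overlap, and 42.9% higher, so that a lack of overlap sets no listed gene apart. Of the 1543 lower genes, 9.79% fell by more than Cidec, 13.1% by more than Slc25a20, 25.1% by more than Cpt1a and 30.0% by more than Pparg, as log2 ratios of group means. Per kilobase of annotated exon, Pparg had the highest level in WT, 2855 ± 523 normalized counts per kb, followed by Cidec at 1571 ± 395, Cpt1a at 1307 ± 42.2 and Slc25a20 at 613.9 ± 93.7 (SD, n = 2). The values of Cidec, 1291 and 1850 per kb, overlapped those of Cpt1a, 1278 and 1337, so their order in WT is not resolved. In Lats1/2iΔLgr5 the order was Pparg at 1474 ± 46.1, Cpt1a at 639.9 ± 23.5, Cidec at 524.5 ± 139 and Slc25a20 at 230.4 ± 29.9 per kb (SD, n = 2). There the highest Cidec value, 622.5, lay next to the lowest Cpt1a value, 623.2.

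Ratios between genes of the same library do not depend on how libraries are scaled. Pparg counts per Slc25a20 count were 2.77 and 2.89 in WT and 3.49 and 4.39 in Lats1/2iΔLgr5, and Cpt1a counts per Slc25a20 count were 3.68 and 3.10 against 3.91 and 4.95. Pparg per Cidec was 3.06 and 2.77 against 3.68 and 5.62, and Cpt1a per Cidec 4.07 and 2.98 against 4.12 and 6.34. In these 4 ratios the groups did not overlap, so Slc25a20 and Cidec were lower relative to Pparg and to Cpt1a in both Lats1/2iΔLgr5 libraries, though the nearest values of Cpt1a per Cidec were 4.07 and 4.12. Pparg per Cpt1a, 0.752 and 0.932 in WT and 0.894 and 0.887 in Lats1/2iΔLgr5, overlapped. Over the 4 libraries the mean-centred log2 profiles of Pparg and Cpt1a differed by a root mean square of 0.12 and those of Slc25a20 and Cidec by 0.15, while pairs across these couples differed by 0.24 to 0.39.

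RefSeq promoter windows (GRCm38.p6, 250 bases before to 50 bases after a start site) were found for all 4 genes, 7 windows in all. They were searched because PPAR receptors bind repeats of AGGTCA. That all 4 genes were lower was fixed by their choice and is no evidence of a shared element. The 3 windows shown each held a match. Not shown are another Pparg window that held AGGTCA, and the last Pparg window and the Cidec windows, which held no match. Capitals mark, in Pparg and Cpt1a, a single AGGTCA on either strand (TGACCT when read on the minus strand), and in Slc25a20 the closest match to the direct repeat, AGGTCA followed by 1 base of any kind and AGGTCA again.
Pparg, chr6:115360894-115361193, plus strand: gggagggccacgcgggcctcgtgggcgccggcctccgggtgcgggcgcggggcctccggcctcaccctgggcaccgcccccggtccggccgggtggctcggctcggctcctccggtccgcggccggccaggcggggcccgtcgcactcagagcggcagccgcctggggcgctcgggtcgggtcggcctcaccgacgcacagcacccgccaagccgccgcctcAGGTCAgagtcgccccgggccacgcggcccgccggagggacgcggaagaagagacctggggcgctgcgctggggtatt
Cpt1a, chr19:3323051-3323350, plus strand: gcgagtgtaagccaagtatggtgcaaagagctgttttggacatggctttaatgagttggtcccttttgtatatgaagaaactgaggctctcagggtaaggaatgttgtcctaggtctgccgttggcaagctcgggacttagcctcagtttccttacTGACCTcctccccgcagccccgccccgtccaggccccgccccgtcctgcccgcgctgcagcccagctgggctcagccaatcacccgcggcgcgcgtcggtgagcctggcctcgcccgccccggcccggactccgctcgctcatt
Slc25a20, chr9:108661886-108662185, plus strand: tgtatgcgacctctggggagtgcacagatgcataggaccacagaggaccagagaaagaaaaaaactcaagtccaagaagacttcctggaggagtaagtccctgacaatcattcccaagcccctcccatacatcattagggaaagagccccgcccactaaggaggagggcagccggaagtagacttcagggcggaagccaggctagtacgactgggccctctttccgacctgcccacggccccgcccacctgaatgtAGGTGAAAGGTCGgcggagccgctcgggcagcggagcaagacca
Searched on both strands, this direct repeat was matched with at most 2 mismatches in the Slc25a20 window alone of the 7, as AGGTGAAAGGTCG from base 7 after the start site. Its mismatches are C5G and A13G, with the motif's base first, then the position counted from 1 at the motif's 5′ end, then the site's base. Of 32851 promoter windows of the same length, 3.86% hold a match this close, and 0.554% hold one with at most 1 mismatch. The single hexamer AGGTCA, which is also part of the repeat, was present in 3 of the 7 windows, 2 of Pparg and that of Cpt1a, and in 16.3% of all windows. Neither Cidec window held AGGTCA. These matches are letters in a short window and not measured binding sites.

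Among PPAR and RXR receptors and their cofactors, Pparg included, 4 of 27 annotated genes were listed, 3 lower and 1 higher. The listed share was 14.8%, beside 20.6% of all genes tested, and the lower share 11.1%, beside 11.7%. Rxra, which encodes an RXR partner of PPARγ, had levels of 2714 and 3473 in WT against 2179 and 2085, and its log2 fold change of -0.54 turned to 0.16 when libraries were scaled by total counts. Rxra has adjusted p = 0.0397 in the authors' deposited table. Ncoa4, a receptor coactivator better known as the cargo receptor of ferritin, fell 2.79-fold. Pprc1, a coactivator related to PGC-1, rose 2.22-fold. Ppara, Ppard and Ppargc1a have no row among the listed genes and were not analysed here.

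Every listed gene of the carnitine shuttle and its control was lower under the authors' scaling (with total counts, all but Crat): 6 of 12 annotated genes, with a median log2 fold change of -1.03 against -0.50 over all 2700 genes fitted and -0.73 over the fitted genes that were lower. Beside Cpt1a and Slc25a20, which were chosen with their values known and enter the list median, these were Acacb, Cpt2, Slc22a5 and Crat. Acacb, which makes the malonyl-CoA that inhibits CPT1, had levels of 2959 and 3505 in WT against 1212 and 838.6 in Lats1/2iΔLgr5 (log2 fold change -1.66, SE 0.22). Cpt2 was at 4583 and 5670 against 2651 and 2368 (log2 fold change -1.03, SE 0.16). Transcripts of the enzymes on either side of the translocase thus stood 2.04-fold lower each. The transcript for the enzyme that makes the inhibitor of CPT1 stood 3.15-fold lower. The carnitine importer gene Slc22a5 fell 1.89-fold. Crat, carnitine acetyltransferase, fell 1.62-fold, and its log2 fold change was 0.0021 when libraries were scaled by total counts.

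Mitochondrial beta-oxidation genes were listed in 9 of 27 cases, all lower except that Acads, Acaa2, Acadl and Etfa turned to small positive values when scaled by total counts, with a median log2 fold change of -0.75. Hadha and Hadhb, the subunits of the trifunctional protein that performs the last steps on long chains, fell 1.87-fold and 1.75-fold. Acad11, an acyl-CoA dehydrogenase gene, fell most in this list, from 3178 ± 438 to 1064 ± 360 normalized counts (SD, n = 2). Etfb, Decr1 and Acads fell 1.90-fold, 1.68-fold and 1.58-fold. The smallest falls were in Acadl, 1.35-fold, the thiolase gene Acaa2, 1.41-fold, and Etfa, which passes the electrons on, also 1.41-fold.

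Peroxisomal beta-oxidation followed the same direction, with 7 of 20 genes listed, all lower (with total counts, all but Ech1), and a median log2 fold change of -0.91. Ehhadh, the peroxisomal bifunctional enzyme and a classic PPARα target in liver, had levels of 2736 and 3607 in WT against 1367 and 1057 in Lats1/2iΔLgr5. That is 2.62-fold lower (log2 fold change -1.39, SE 0.21). Abcd3, which imports fatty acids into the peroxisome, fell 2.09-fold. Phyh (counted in this list although it acts in alpha-oxidation), Decr2, Scp2 and Acaa1a fell between 1.66-fold and 1.90-fold, and Ech1 fell 1.47-fold. Counted once each, 22 of 59 genes of the carnitine and both oxidation lists (37.3%) were listed, beside 20.6% of all genes tested and 11.7% called lower, and all 22 were lower under the authors' scaling, with the 6 exceptions under total counts just named; without Cpt1a and Slc25a20 these are 20 of 57.

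**Figure D2:**
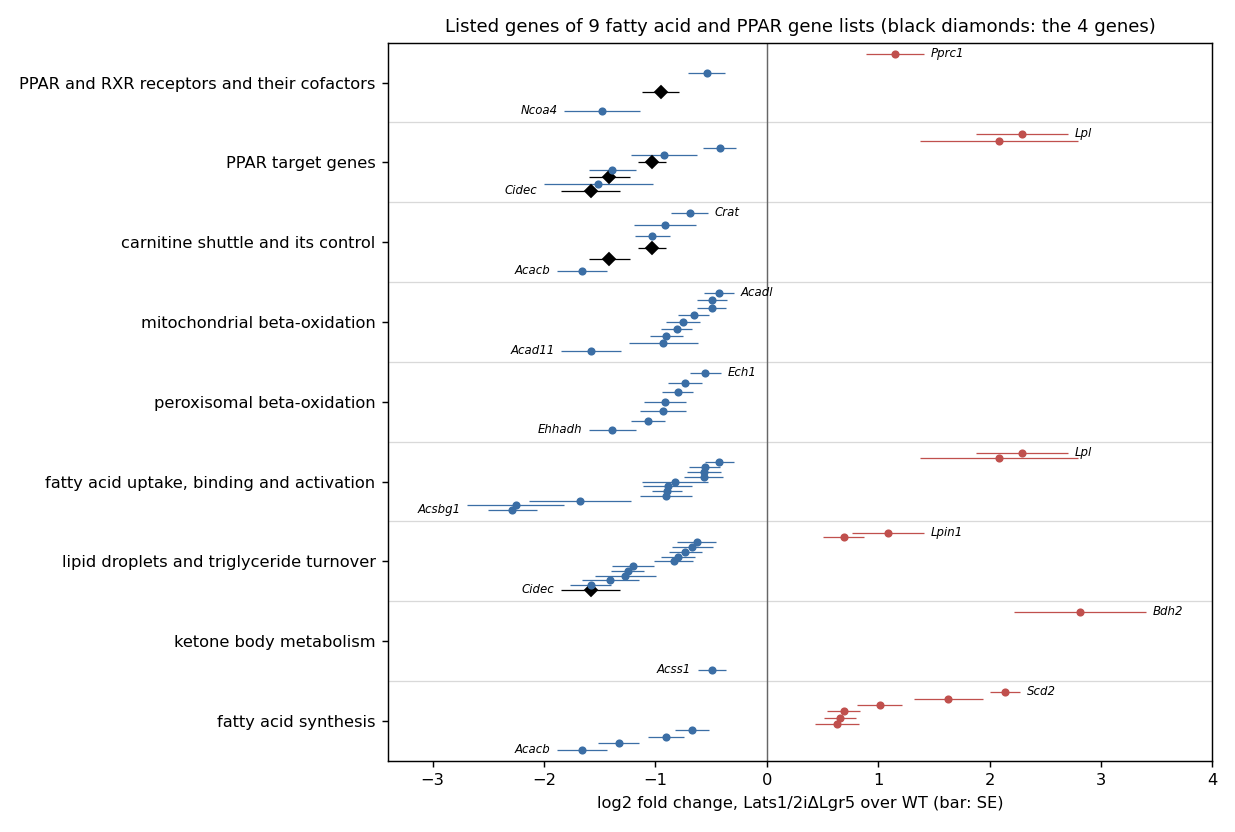
Log2 fold change (Lats1/2iΔLgr5 over WT, points with SE bars) of the listed genes of the 9 gene lists, 1 row of points per list, with Pparg, Cpt1a, Slc25a20 and Cidec as black diamonds. Under the authors' scaling, drawn here, the carnitine and oxidation lists lie wholly below 0, while fatty acid synthesis spans both sides from Acacb at -1.66 to Scd2 at 2.14.

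Lipid droplet and triglyceride genes were mostly lower as well, 11 of the 13 listed out of 36, though Agpat1 and Fitm2 turned positive when scaled by total counts. Without Cidec these were 10 of 12. The listed share was 36.1%, beside 20.6% of all genes tested. Dgat2 and Dgat1, the enzymes of the last step of triglyceride synthesis, fell 2.99-fold and 2.41-fold. Mogat1 and Agpat4, which act earlier in glycerolipid synthesis, fell 2.65-fold and 2.38-fold, Agpat2 of the same pathway fell 1.74-fold, and Hsd17b11, a lipid droplet protein gene, fell 2.29-fold. Agpat5 rose 1.61-fold, and Lpin1 rose 2.13-fold from a low level of 95.3 ± 11.6 normalized counts (SD, n = 2). Cidec's log2 fold change of -1.58 (SE 0.27) was close to that of Dgat2, -1.58 (SE 0.18). Plin1, Plin2 and Cidea have no row among the listed genes.

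PPAR targets did not all move one way: 9 of 33 were listed, 7 lower (3 of them Cpt1a, Slc25a20 and Cidec, and with Ucp2 positive under total counts) and 2 higher. Those lower are 21.2% of the list, beside 11.7% of all genes tested, but this share includes the 3 chosen genes. Without them 6 targets were listed, 4 of them lower, so the list apart from the chosen genes is not set apart here. The 2 higher genes supply fatty acids from outside the cell. Lpl, the lipase that frees fatty acids from circulating lipoproteins, rose from 111.1 and 100.4 normalized counts in WT to 332.3 and 704.2 in Lats1/2iΔLgr5, a 4.90-fold rise whose log2 fold change of 2.29 was 1.65 without Lats1/2iΔLgr5 replicate 2. Cd36, a fatty acid uptake receptor, was at 93.4 and 81.6 in WT and at 134.0 and 606.5 in Lats1/2iΔLgr5, so that its log2 fold change of 2.08 (SE 0.71) was 0.61 without Lats1/2iΔLgr5 replicate 2 and 2.79 without Lats1/2iΔLgr5 replicate 1. Creb3l3, a liver and gut regulator of lipid genes, had a log2 fold change of -1.51, which was -0.68 without WT replicate 2. In the wider list of uptake, binding and activation, 13 of 32 genes were listed (40.6%, beside 20.6% of all genes tested). Of these 11 were lower, of which Acbd3, Acbd5, Acot13 and Dbi turned positive under total counts. Acsbg1 and Acsl3, which activate fatty acids to acyl-CoA, fell 4.88-fold and 1.86-fold, and Fabp2, an intestinal fatty acid binding protein gene, fell 4.77-fold. The acyl-CoA binding gene Acbd4 and the thioesterase gene Acot11 fell 1.85-fold and 1.87-fold.

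Fatty acid synthesis was the list of the 9 with more genes higher than lower, 6 against 4 of 18. Its listed share was 55.6%, beside 20.6% of all genes tested, of which 8.81% were called higher. Its lower share was 22.2%, beside 11.7%. Scd2, a desaturase gene, rose 4.41-fold, from 4231 ± 343 to 18646 ± 184 normalized counts (SD, n = 2), and Scd1 rose 3.09-fold. Acaca, which makes the malonyl-CoA used for synthesis, rose 2.02-fold, in contrast to its relative Acacb in the carnitine list. The regulator gene Srebf1 and the synthesis enzymes Acly and Fasn rose 1.61-fold, 1.58-fold and 1.55-fold. Me1, which supplies NADPH, fell 2.52-fold, Insig2 fell 1.87-fold, and Scap fell 1.59-fold but turned positive under total counts. In the list for ketone body metabolism 2 of 9 genes were listed (22.2%, near the 20.6% of all genes tested). The acetyl-CoA synthetase gene Acss1 fell 1.41-fold, with a small positive value under total-count scaling. Bdh2 rose from 12.7 ± 7.03 to 89.0 ± 26.4. Across the 9 lists, with each gene counted once, 66 of 193 genes were listed (34.2%, beside 20.6% of all genes tested). Of these, 54 were lower under the authors' scaling, or 81.8%, beside 57.1% of all listed genes, and 38 under total counts. The 54 include the 4 genes chosen with their values known, so part of the excess over all listed genes was fixed by the choice.

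**Figure D3:**
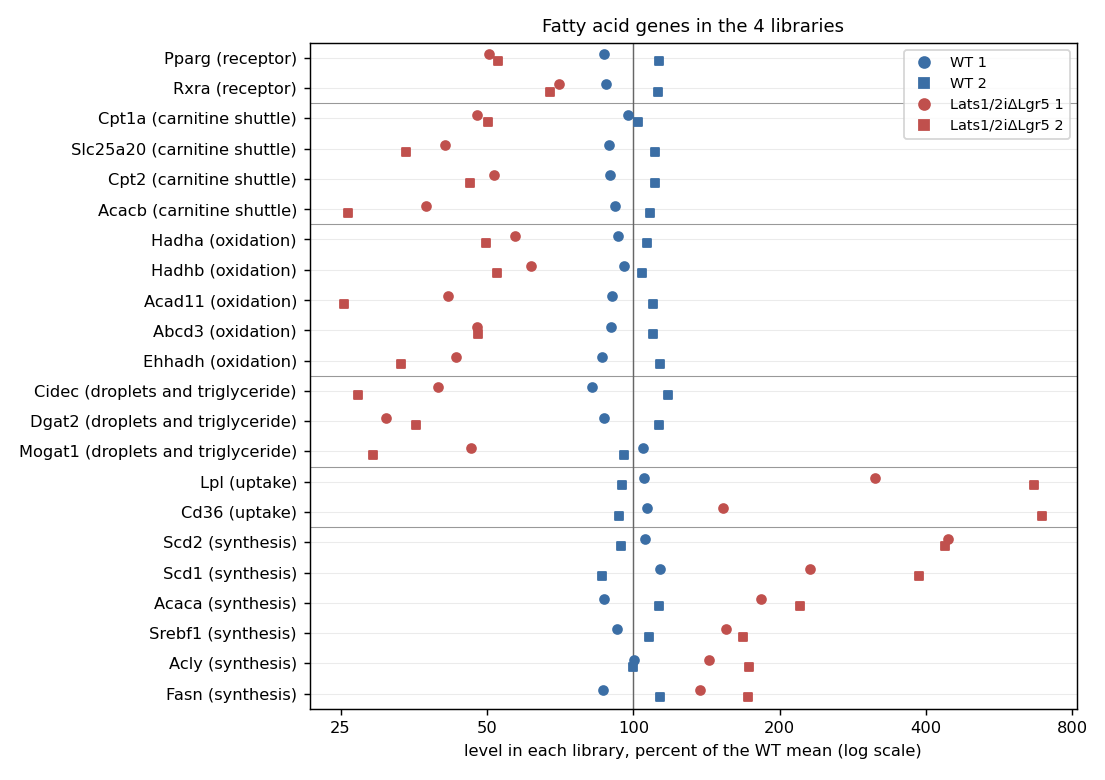
Level of 22 genes in each library as a percent of the gene's WT mean (log axis; circles replicate 1, squares replicate 2; blue WT, red Lats1/2iΔLgr5). The genes drawn are a selection, so the split by class is not a result. Receptor, shuttle, oxidation and droplet genes drawn lie to the left of WT in both Lats1/2iΔLgr5 libraries. Lpl, Cd36 and the synthesis genes drawn lie to the right, with Cd36 at 153% and 693%. Not drawn are Pprc1, Agpat5 and Lpin1, which rose, and Me1, Insig2 and Scap, which fell. Of 13 listed uptake genes, 11 of them lower, only the 2 that rose are drawn.

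Of the cell type lists, surface mucous cell markers had the largest listed share, 70%, beside 20.6% of all genes tested. In each other cell type list at most 3 markers were listed, too few to set its share apart from 20.6%. For enterocyte markers, as an example, the share was 18.2%. Of 13 adipocyte markers, 2 were listed, and these were Pparg and Cidec themselves; Adipoq, Lep, Plin1, Fabp4 and the others have no row, so their levels were not analysed here. No macrophage or smooth muscle marker was listed, of 12 and 8. Of 10 surface mucous cell markers 7 were listed, all lower, and their summed level was 4597675 and 4891239 normalized counts in WT and 2491714 and 2029024 in Lats1/2iΔLgr5, with none of them at 0. Enterocyte markers Fabp2 and Vil1 (2 of 11) summed to 24177 and 42441 against 13557 and 9865, and parietal markers Kcnj15 and Ckmt1 (2 of 8) to 35317 and 49741 against 23946 and 19762. Fibroblast markers had 3 of 7 listed, Col1a2, Col3a1 and Mmp2, all lower, summing to 10068 and 13681 against 7414 and 6332. Squamous markers had 3 of 12 listed, with Sprr2a1 lower and Dmkn and Krt4 higher, endothelial markers 2 of 7, Gpihbp1 higher and Kdr lower, and pancreatic markers 2 of 9, Cela1 higher and Cela2a lower. Cela2a was at 6.31 and 215.1 normalized counts in WT, so that its fall came from WT replicate 2.

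Levels within a library were therefore also set against epithelial genes, a comparison chosen after the values were seen. Per 100 counts of Cdh1, which encodes E-cadherin, Cpt1a was at 21.8 and 22.6 in WT and 15.7 and 15.4 in Lats1/2iΔLgr5. On the same scale Pparg was at 16.4 and 21.0 against 14.1 and 13.7, Slc25a20 at 5.92 and 7.27 against 4.02 and 3.11, and Cidec at 5.35 and 7.58 against 3.81 and 2.43. All 4 genes were thus lower relative to Cdh1 without overlap, and also relative to the keratin gene Krt8. Both reference genes were themselves listed as lower, Cdh1 at 69.8% and Krt8 at 65.8% of the WT mean. Against the 7 listed surface mucous genes Pparg and Cpt1a overlapped between the groups in each case, and Slc25a20 and Cidec were lower without overlap in all but 1. Per 100 counts of the trefoil peptide gene Tff1, Pparg was at 11.9 and 13.7 in WT and 11.7 and 13.2 in Lats1/2iΔLgr5, and Cpt1a was at 15.8 and 14.8 against 13.1 and 14.9, so that the groups overlapped for both. Slc25a20 was at 4.29 and 4.76 against 3.36 and 3.02 per 100 Tff1 counts, and Cidec at 3.87 and 4.96 against 3.19 and 2.36, lower without overlap. Slc25a20 and Cidec were also lower without overlap per count of Capn9, Gkn1, Gkn2, Krt20 and Psca. The exception was the mucin gene Muc5ac: per 100 of its counts Slc25a20 was at 0.990 and 0.844 in WT and 0.993 and 0.446 in Lats1/2iΔLgr5, and Cidec at 0.894 and 0.880 against 0.941 and 0.348, so that the groups overlapped. The part of surface mucous cells in the differences of the 4 genes was not tested.

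**Figure D4:**
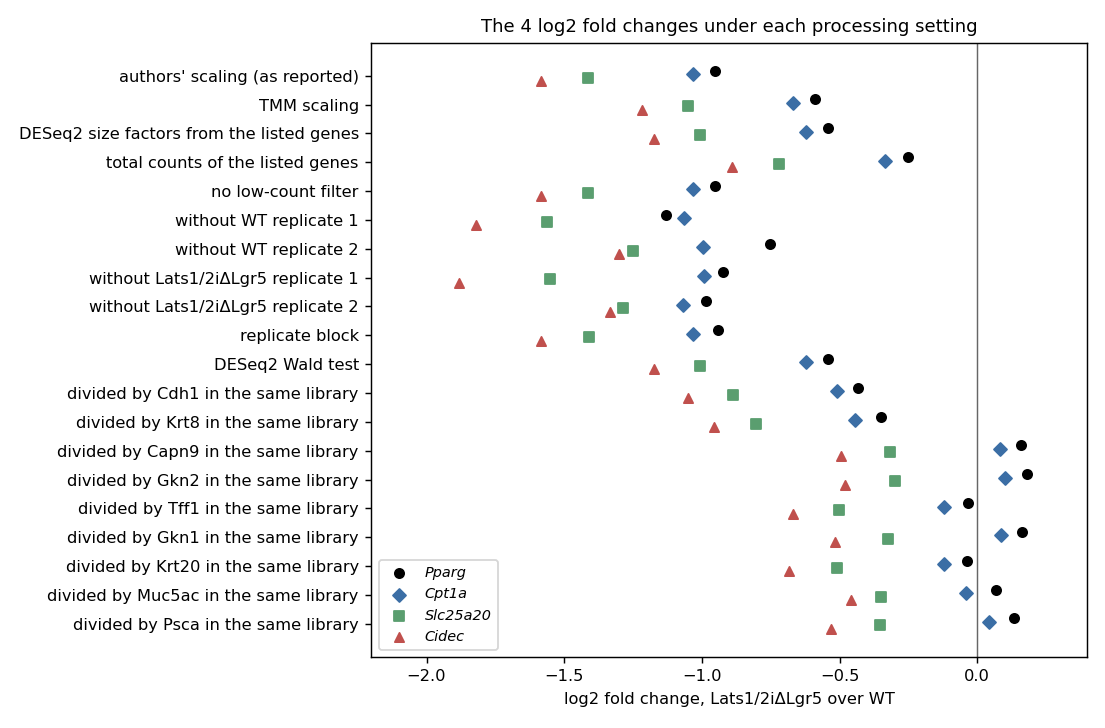
Log2 fold change of Pparg, Cpt1a, Slc25a20 and Cidec (x axis) under each scaling, tool, left-out library and within-library reference gene (y axis). Slc25a20 and Cidec stay below 0 in each row, and Pparg and Cpt1a do so except when divided by Capn9, Gkn1, Gkn2 or Psca and, for Pparg, by Muc5ac.

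The listed genes most like each of the 4 were found by the smallest root mean square difference between mean-centred log2 profiles over the 4 libraries, among 2564 named genes with a base mean of at least 50. For Pparg these were Tnfrsf1b (0.017), Prim2 (0.021) and Wdr44 (0.023). For Cpt1a they were Frmpd1 (0.021), Higd1a (0.027) and the Notch ligand gene Jag1 (0.031). Rab11fip4 (0.039), Ehhadh (0.050) and Plgrkt (0.051) were nearest to Slc25a20, and Ehhadh is the peroxisomal oxidation gene described above. For Cidec they were Icosl (0.039), Vwa7 (0.052) and Xkr9 (0.056). With 4 libraries in 2 groups, such closeness describes these libraries only.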

How the data were processed

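RNA from 5 to 7 frozen sections of 10 µm per sample was made into libraries with a stranded mRNA kit and read as 75 bp pairs, per the labels' protocols. TopHat2 2.1.1, HTSeq, DESeq2 and build GRCm38 are named in the submitters' processing notes, with settings not given in the sources used here. Raw counts, as the authors deposited them, are whole numbers for each gene in each of the 4 libraries. The authors' DESeq2 values stand beside them, per the file headers: base mean (a signal, the mean of normalized counts), log2 fold change, its standard error, the Wald statistic (a score), the p-value and the adjusted p-value. The deposited log2 fold changes are shrunken, with a slope of 0.775 on the log2 ratio of group means.

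Size factors were recovered from the base means and counts: 0.792 and 0.907 for WT and 1.10 and 1.28 for Lats1/2iΔLgr5. Base means rebuilt with them deviated by at most 0.0119%. edgeR 4.0.16 was fitted with these factors, filterByExpr and Benjamini-Hochberg adjustment at 0.05, in R 4.3.3, and DESeq2 1.42.0 was an alternative; the edgeR step was checked on simulated data. SEs are the log2 fold change divided by the square root of the F statistic. Calls in the text (rose, fell, lower, higher) are the authors' own at 0.05. Symbols matched 2698 of 2701 IDs (GENCODE M21), exon lengths are unions of its exons, and 1 was added to deposited starts, which lay 1 base below GENCODE's in 2214 genes.

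The 4 genes, the 9 pathway and 11 marker lists, and the tests were chosen with earlier results of these data known. Named are the 4 genes, genes of the pathway lists, up to 3 per marker list by the smallest adjusted p, Lats1, and the 3 genes nearest in pattern to each of the 4; Cdh1, Krt8 and marker genes beyond the 3 were chosen after their values were seen. Some genes are not reported here and were left out of the lists and of the search by pattern.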

Additional observations from a re-analysis of the deposited data

How the results depend on the processing

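Of the listed genes edgeR called 2698 (1541 lower, 1157 higher), a count fixed largely by the authors' selection. TMM scaling gave 1652 (495 lower, 1157 higher), DESeq2 size factors 1589 (432 lower, 1157 higher), the DESeq2 Wald test 1668 (510 lower, 1158 higher) and total counts 1331 (173 lower, 1158 higher). Without a single library the count ranged from 5 (without Lats1/2iΔLgr5 replicate 2) to 2454, and it was 1503 without Lats1/2iΔLgr5 replicate 1. The falls of the 4 genes became smaller under other scalings; since these change every gene of a library by the same factor, only relative levels are fixed. Log2 fold changes of Pparg, Cpt1a, Slc25a20 and Cidec were -0.59, -0.67, -1.05 and -1.22 with TMM, -0.54, -0.62, -1.01 and -1.17 with DESeq2 size factors and with the Wald test, and -0.25, -0.34, -0.72 and -0.89 with total counts. Divided by Cdh1 in the same library they were -0.43, -0.51, -0.89 and -1.05, by Krt8 -0.35, -0.45, -0.81 and -0.96, by Tff1 -0.035, -0.12, -0.50 and -0.67, by Capn9 0.16, 0.082, -0.32 and -0.50, by Gkn2 0.18, 0.10, -0.30 and -0.48, by Gkn1 0.16, 0.087, -0.32 and -0.52, by Krt20 -0.036, -0.12, -0.51 and -0.68, by Muc5ac 0.067, -0.041, -0.35 and -0.46, and by Psca 0.13, 0.043, -0.35 and -0.53; these references were chosen after the data were seen. Without a single library they ranged from -1.13 to -0.75 for Pparg, -1.07 to -0.99 for Cpt1a, -1.56 to -1.25 for Slc25a20 and -1.88 to -1.30 for Cidec.

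Total counts turned positive Rxra 0.16, Crat 0.0021, Acads 0.034, Etfa 0.19, Acss1 0.20, Acaa2 0.20, Acadl 0.27, Ech1 0.14, Scap 0.026, Cdh1 0.18 and Krt8 0.097. Of the 66 listed pathway genes 54 were lower under each of these scalings, tools and left-out libraries but total counts, where 38 were. Bdh2 was at 3.51 without WT replicate 1 in place of 2.81 and Dmkn at 2.66 without Lats1/2iΔLgr5 replicate 1 in place of 3.35. Besides the 4, 81 genes were followed, those picked by the rule for naming and others given a value; Cela2a among them was removed by the low-count filter. Of the remaining 80, 22 lost the edgeR call with TMM, 24 with DESeq2 size factors, 23 with the Wald test and 35 with total counts, with their direction kept. With a replicate block (the shared numbers 1 and 2), edgeR called 2535 genes and none of the 80 changed its call or direction. Deviations of same-numbered libraries from their group means were only weakly and negatively correlated (r = -0.16 over genes). Nothing in the labels pairs these libraries, and a crossed block, added after this correlation was seen, called 2660. Most of those 80 genes lost the edgeR call without Lats1/2iΔLgr5 replicate 2, and far fewer without replicate 1. Log2 fold changes did not all shrink where the call was lost. Without replicate 2 and without replicate 1, Acsbg1 was at -2.47 and -2.13 and Dgat2 at -1.69 and -1.48. Ehhadh went the other way, at -1.21 and -1.58. Each of these fits leaves 1 Lats1/2iΔLgr5 library, whose spread is not measured, and the cause of the difference was not tested. With 2 libraries per group, genes at low counts such as Cd36 and Bdh2 are the least precise, and the cause of each change with scaling was not tested.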
